A study of Mus musculus with 15 samples.

Results

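The lipid-associated macrophage core is a set of 8 genes, Spp1, Gpnmb, Cd63, Trem2, Tyrobp, Lgals3, Cd9 and Cd68, measured here across 15 RNA-seq libraries of mouse alveolar macrophages. The genes were taken by symbol from the deposited count table, 1 row each, so they are 8 of its 40510 genes. All 8 passed the filter on low counts, which left 13284 genes for testing. The cells were washed from the lungs of untreated C57BL/6 mice by bronchoalveolar lavage and sorted as CD45+ Ly6G- SiglecF+ CD11c+ macrophages. There were 5 groups of 3 libraries. They were CD11b-high cells of 12-week Cybb knockout (KO) mice, CD11b-low cells of 12-week KO mice, CD11b-low cells of 12-week wild-type (WT) mice, CD11b-low cells of 4-week KO mice and CD11b-low cells of 4-week WT mice. Cybb encodes the catalytic subunit of the phagocyte NADPH oxidase, and its loss models chronic granulomatous disease (CGD). The labels describe the knockout no further, and a CD11b-high WT group was not analysed here. Each library pooled 2 to 3 mice and about 50000 cells, so a library averages over mice and the spread between libraries is a spread between pools.

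The libraries held 22856331 to 36458893 counts, with 15889 to 17973 genes detected. Cybb stood at 129 to 221 counts scaled to library size (CPM) in the 9 KO libraries and at 899 to 2319 CPM in the 6 WT libraries, as labelled. All 12 listed alveolar macrophage markers were detected in every group, with a summed level of 34760 to 63710 CPM over the 15 libraries. Xist was above 1 CPM in 7 libraries, namely 2 of the 3 in each 12-week KO group, 1 in the 4-week KO group, 2 in the 4-week WT group and none in the 12-week WT group, and the labels do not give the sex of the mice. In bulk RNA of this kind, fewer cells of a type and less RNA per cell cannot be told apart.

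Lipid-associated macrophages are cells that take up and break down lipid and cell debris, described in obese fat, in atheroma and in injured lung, liver and brain. Their programme turns on TREM2, a surface receptor that binds lipids and lipoproteins and signals through the adaptor TYROBP (DAP12) to the kinase SYK. Around it stand the secreted matrix protein osteopontin (Spp1), the endosomal glycoprotein GPNMB, the lectin galectin-3 (Lgals3), and the membrane proteins CD63, CD9 and CD68 of lysosomes, vesicles and the cell surface. Alveolar macrophages handle surfactant lipid throughout life, and several of these genes are abundant in them at rest.

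The promoters of the 4 genes that were higher in CD11b-high KO cells than in WT cells at 12 weeks are printed first, because those genes changed in that comparison and the other 4 did not pass. Each run is 300 bases, 250 before and 50 after a RefSeq transcription start on GRCm38.p6, 5′ to 3′ on the gene's strand. Of the 8 genes 7 had an entry, and for Spp1 the upstream of its annotated starts is shown. Capitals mark a match on either strand to 1 of 4 motifs: TGANTCA (the AP-1 type), GAGGAAGT (a PU.1 type), CACGTG and CATGTG (E-box and M-box cores that MITF and TFE factors can bind).
Spp1, chr5:104434861-104435160, plus strand: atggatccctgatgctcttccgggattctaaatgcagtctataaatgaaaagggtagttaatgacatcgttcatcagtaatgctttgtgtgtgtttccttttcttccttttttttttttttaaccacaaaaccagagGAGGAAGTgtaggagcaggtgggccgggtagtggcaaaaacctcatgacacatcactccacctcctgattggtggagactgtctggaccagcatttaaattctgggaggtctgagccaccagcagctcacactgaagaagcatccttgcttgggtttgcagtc
Gpnmb, chr6:49036268-49036567, plus strand: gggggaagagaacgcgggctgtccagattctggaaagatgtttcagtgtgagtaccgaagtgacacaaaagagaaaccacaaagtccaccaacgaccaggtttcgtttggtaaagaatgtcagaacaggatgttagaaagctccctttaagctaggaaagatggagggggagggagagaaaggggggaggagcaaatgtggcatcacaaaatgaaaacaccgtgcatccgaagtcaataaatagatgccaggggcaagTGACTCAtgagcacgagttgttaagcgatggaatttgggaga
Cd63, chr10:128909095-128909394, plus strand: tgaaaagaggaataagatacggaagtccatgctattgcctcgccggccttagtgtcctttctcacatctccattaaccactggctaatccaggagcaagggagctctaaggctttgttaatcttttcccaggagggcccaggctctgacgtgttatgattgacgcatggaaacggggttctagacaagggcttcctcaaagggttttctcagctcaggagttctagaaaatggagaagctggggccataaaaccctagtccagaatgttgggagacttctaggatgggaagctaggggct
Trem2, chr17:48346151-48346450, plus strand: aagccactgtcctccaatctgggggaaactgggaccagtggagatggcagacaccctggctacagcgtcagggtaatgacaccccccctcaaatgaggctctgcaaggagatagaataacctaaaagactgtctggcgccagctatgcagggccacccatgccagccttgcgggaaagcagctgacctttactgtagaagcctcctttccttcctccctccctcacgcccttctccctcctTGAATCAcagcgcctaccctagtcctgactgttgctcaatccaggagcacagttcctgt
Counted from the start site, Spp1 carried a PU.1-type match at -113. Gpnmb carried the AP-1 letters TGACTCA at 8 and Trem2 carried TGAATCA at -9. None of these 4 motifs was found in the Cd63 window, and no E-box core was found in any of the 4. Of 32851 RefSeq windows of the same length, 7.81% held the AP-1 type, 3.2% the PU.1 type, 7.15% CACGTG and 14.2% CATGTG. Among the genes not printed, Cd68 held 2 AP-1 matches and Cd9 held 1 M-box match. These are matches of letters and were not tested as binding sites.

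Per kilobase of annotated exon, Cd9, Tyrobp and Cd68 were the most abundant of the set and Trem2 the least in every group. In CD11b-high KO cells Cd9 stood at 6888 ± 914 CPM per kb, Tyrobp at 6192 ± 2675, Cd68 at 4366 ± 2182, Spp1 at 3216 ± 807 and Lgals3 at 1424 ± 466 (SD, n = 3). Gpnmb followed at 671.5 ± 138 CPM per kb, Cd63 at 507 ± 129 and Trem2 at 57.3 ± 18.1. In 12-week WT cells the order was Tyrobp, Cd9, Cd68, Lgals3, Spp1, Cd63, Gpnmb and Trem2, with Gpnmb at 71.6 ± 30.1 and Cd63 at 83.0 ± 12.4 CPM per kb, a difference within their spread. Neighbours in the order whose mean ± SD overlapped were Cd9 with Tyrobp in the 3 groups at 12 weeks, Tyrobp with Cd68 in both 12-week KO groups, and Cd68 with Spp1 in CD11b-high KO cells. Spp1 and Lgals3 overlapped in every group but CD11b-high KO cells, Gpnmb and Cd63 overlapped in the 3 groups at 12 weeks, and Cd63 and Trem2 overlapped in 4-week WT cells. The exon lengths come from GENCODE M21, which may not be the annotation used for counting, so these levels rank genes only roughly. All other levels below are CPM scaled by TMM factors and are not corrected for length.

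**Figure D1:**
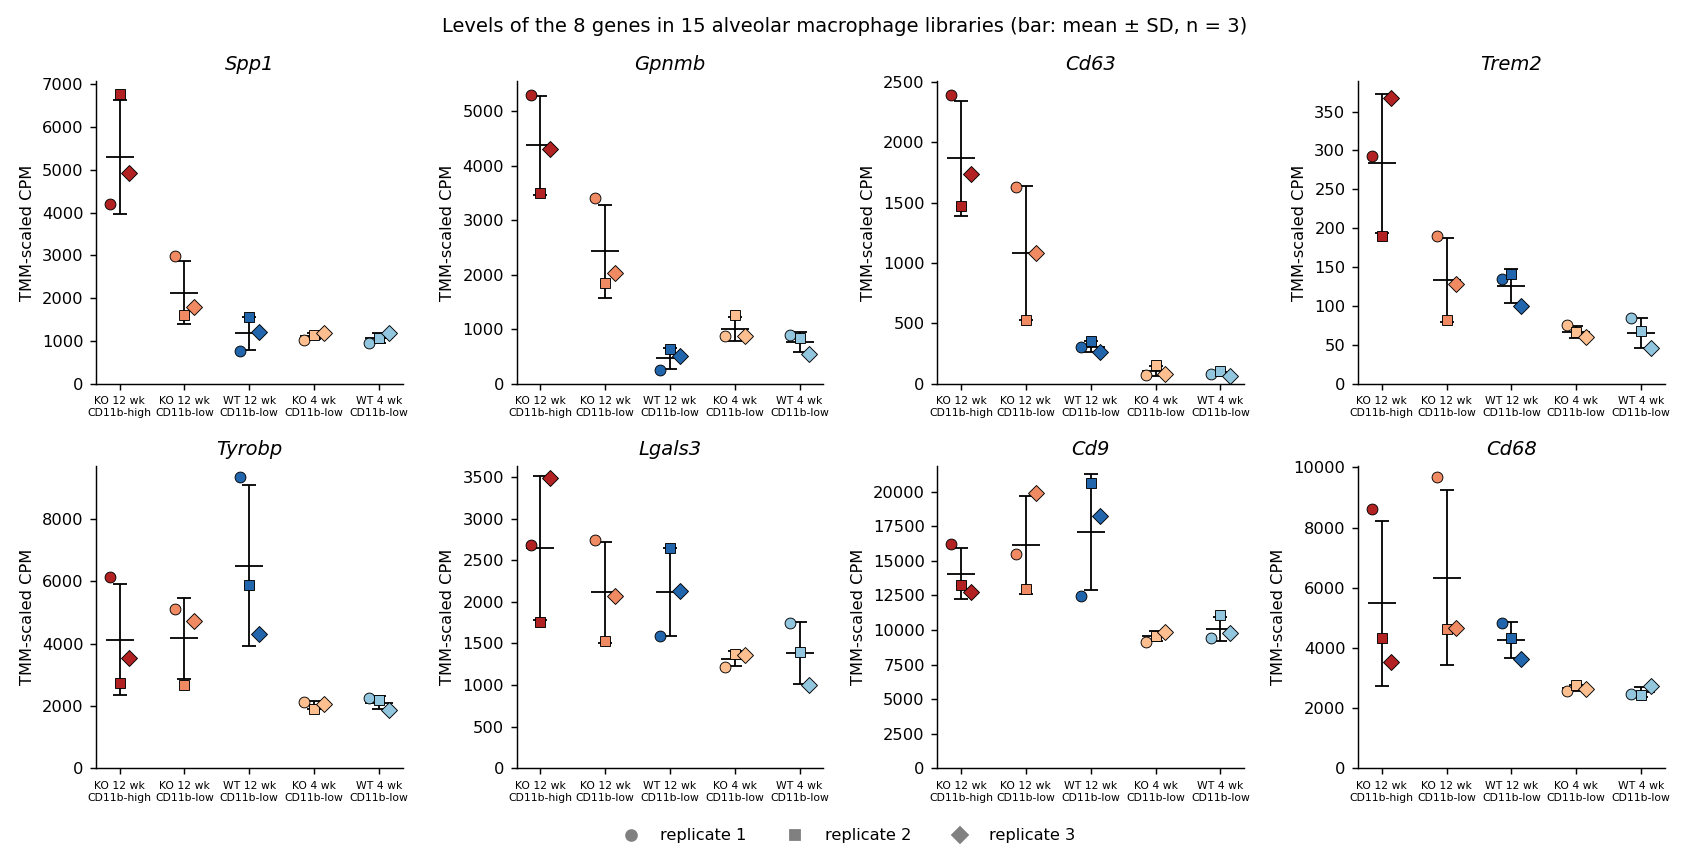
TMM-scaled CPM of each gene (y axis, linear from 0) in the 5 groups (x axis), with 1 point per library, marker shapes for replicate numbers and black bars for mean ± SD (n = 3). Spp1 and Gpnmb in the 3 CD11b-high KO libraries sit above every other library, from 4190.2 to 6775 CPM and from 3503 to 5303 CPM, and all 8 genes have their lowest group means at 4 weeks except Gpnmb, whose lowest is in 12-week WT cells.

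At 12 weeks the CD11b-low macrophages of KO mice held more Gpnmb and Cd63 RNA than those of WT mice. Of the 8 genes, these 2 rose and none fell, with 2.6% of the 13284 tested genes called higher in that comparison (edgeR's quasi-likelihood test, two-sided, Benjamini-Hochberg adjusted p under 0.05, the rule for every call below). The median log2 fold change was 0.33 over the 8 genes and -0.04 over all tested genes. GPNMB is a heavily glycosylated membrane protein of late endosomes that MITF-type factors induce in stressed lysosomes. Gpnmb stood at 3403, 1842 and 2040 CPM in KO libraries 1, 2 and 3, against 253, 638 and 508 CPM in WT libraries 1, 2 and 3. The lowest KO library lay far above the highest WT library, and the fold was 5.21 (log2 2.38, SE 0.35, adjusted p 0.000833 in edgeR). Cd63, a tetraspanin of lysosomes and exosomes, stood at 1631, 528 and 1085 CPM in KO libraries, against 307, 351 and 259.6 CPM in WT libraries. Its KO libraries spread over a wider range than its WT libraries without touching them, and the fold was 3.54 (log2 1.82, SE 0.37, adjusted p 0.0105 in edgeR). With limma voom and quality weights the adjusted p of Cd63 was 0.0867. Xist stood at 17.8 and 10.7 CPM in KO libraries 1 and 3 and at most at 0.0853 CPM in the WT libraries. KO library 2, with Xist at 0.0295 CPM, held the lowest Gpnmb and Cd63 of the KO libraries. Genotype and Xist level thus differ together here, and their parts cannot be told apart.

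Spp1, which encodes osteopontin, a secreted phosphoprotein that binds integrins and CD44, was also highest in KO pools but did not pass. It stood at 2977, 1605 and 1800 CPM in KO libraries, against 775, 1549 and 1198 CPM in WT libraries. The groups did not overlap, with the lowest KO and the highest WT library close together, and the log2 fold change was 0.86 (SE 0.29, edgeR adjusted p 0.118). TREM2 and its adaptor TYROBP did not pass. Trem2 averaged 134 ± 54.4 CPM in KO cells and 125 ± 22.0 CPM in WT cells (SD, n = 3 each), with overlapping libraries and a 95% interval of the log2 fold change of -0.56 to 0.74. Tyrobp averaged 4173 ± 1299 CPM in KO cells and 6508 ± 2580 CPM in WT cells, a log2 fold change of -0.64 (SE 0.33, edgeR adjusted p 0.283). The log2 fold changes of Lgals3, Cd9 and Cd68 were -0.01, -0.08 and 0.57, and none passed.

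At 4 weeks no difference between KO and WT macrophages passed for the set. None of the 8 was called in edgeR, DESeq2 or limma voom, and 0.0151% of all tested genes were called higher. None of the 8 had an unadjusted edgeR p under 0.05, against 199 of the 13284 tested genes. Gpnmb stood at 873, 1267 and 871 CPM in KO libraries, against 896, 843 and 555 CPM in WT libraries, which overlap. Its log2 fold change of 0.39 had a 95% interval of -0.31 to 1.10, so a difference of the size seen at 12 weeks lies outside the interval. Cd63 stood at 74.7, 154 and 83.5 CPM in KO libraries, against 80.4, 102 and 64.0 CPM in WT libraries, with an interval of -0.41 to 1.10. Spp1 averaged 1117 ± 78.4 CPM in KO cells and 1066 ± 117 CPM in WT cells (SD, n = 3 each), and its interval ran from -0.54 to 0.68. Trem2, Tyrobp, Lgals3, Cd9 and Cd68 had log2 fold changes between -0.08 and 0.06.

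The change of the genotype difference with age was tested as an interaction. None of the 8 genes passed in edgeR, and 0.248% of all tested genes were called higher. The unadjusted edgeR p was under 0.05 for 2 of the 8 genes and for 1103 of the 13284 tested genes. Gpnmb had the largest estimate, 1.99 on the log2 scale (SE 0.48, adjusted p 0.105 in edgeR), and Cd63 followed at 1.48 (SE 0.51, adjusted p 0.368). DESeq2 called Gpnmb alone. For Gpnmb the 2 ages of WT cells contribute as well, since it averaged 466 ± 196 CPM in WT cells at 12 weeks and 765 ± 184 CPM in WT cells at 4 weeks (SD, n = 3 each).

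**Figure D2:**
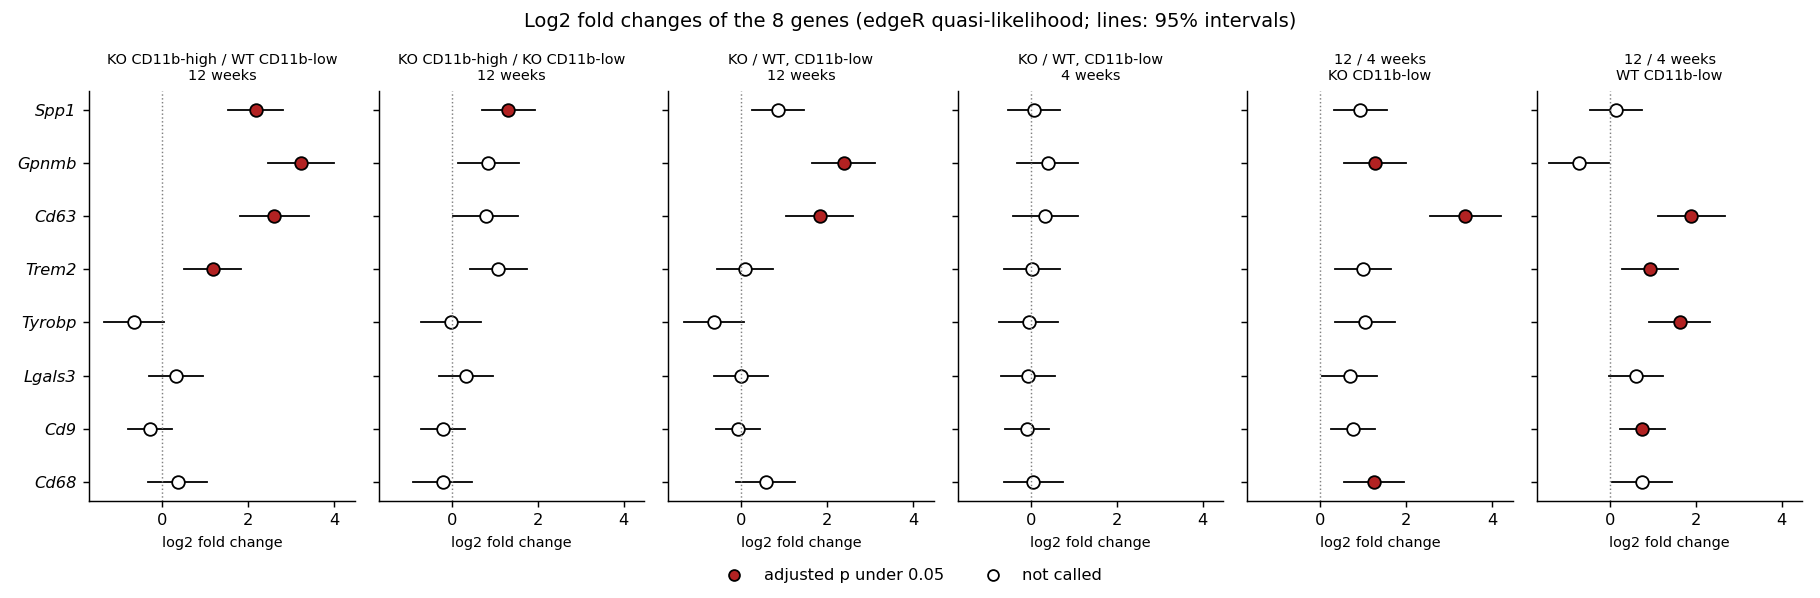
Log2 fold changes (x axis) of the 8 genes (rows) in 6 comparisons (panels), with 95% intervals as lines and filled points where the adjusted p was under 0.05. Spp1, Gpnmb, Cd63 and Trem2 are filled for CD11b-high KO over WT cells, and no point is filled at 4 weeks.

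Within 12-week KO mice, Spp1 was called higher in the CD11b-high than in the CD11b-low cells, close to the threshold. The call was lost with the replicate number as a block. Spp1 was the 1 gene of the 8 that passed, with 0.572% of all tested genes called higher, and the median log2 fold change was 0.56 over the 8 genes and 0.01 over all tested genes. It stood at 4190.2, 6775 and 4935 CPM in CD11b-high libraries 1, 2 and 3, against 2977, 1605 and 1800 CPM in CD11b-low libraries 1, 2 and 3. Every CD11b-high library was above every CD11b-low library, the fold was 2.49 (log2 1.32, SE 0.29, edgeR adjusted p 0.0467), and the same-numbered folds were 1.41, 4.22 and 2.74. The replicate numbers pair these libraries, and with the number as a block in the 6 libraries the log2 fold change was 1.345 and the adjusted p 0.0544. Without CD11b-high library 2 or 3 the adjusted p was 0.209 or 0.126, and without CD11b-low library 2 or 3 it was 0.238 or 0.215.

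Trem2, Gpnmb and Cd63 were higher in the CD11b-high library of every pair but none passed. How many of all tested genes had the same direction in every pair was not counted. Trem2 stood at 292.5, 190.2 and 368 CPM in CD11b-high cells, against 190.25, 81.8 and 128 CPM in CD11b-low cells. The lowest CD11b-high and the highest CD11b-low library met, with a log2 fold change of 1.09 (SE 0.31, edgeR adjusted p 0.146, or 0.0565 with the pairs as a block). DESeq2 called it, with an adjusted p of 0.0477. Gpnmb stood at 5303, 3503 and 4315 CPM in CD11b-high cells, above the CD11b-low values given earlier in each library, with a log2 fold change of 0.85 (SE 0.34, edgeR adjusted p 0.359). Cd63 stood at 2389.7, 1468 and 1739 CPM in CD11b-high cells and overlapped the CD11b-low libraries, with a log2 fold change of 0.79 (SE 0.36, edgeR adjusted p 0.470). The other 4 genes were between -0.21 and 0.32 on the log2 scale. Cd68 was lower in the CD11b-high library of all 3 pairs, by 0.17, 0.10 and 0.41 on the log2 scale, and did not pass.

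**Figure D3:**
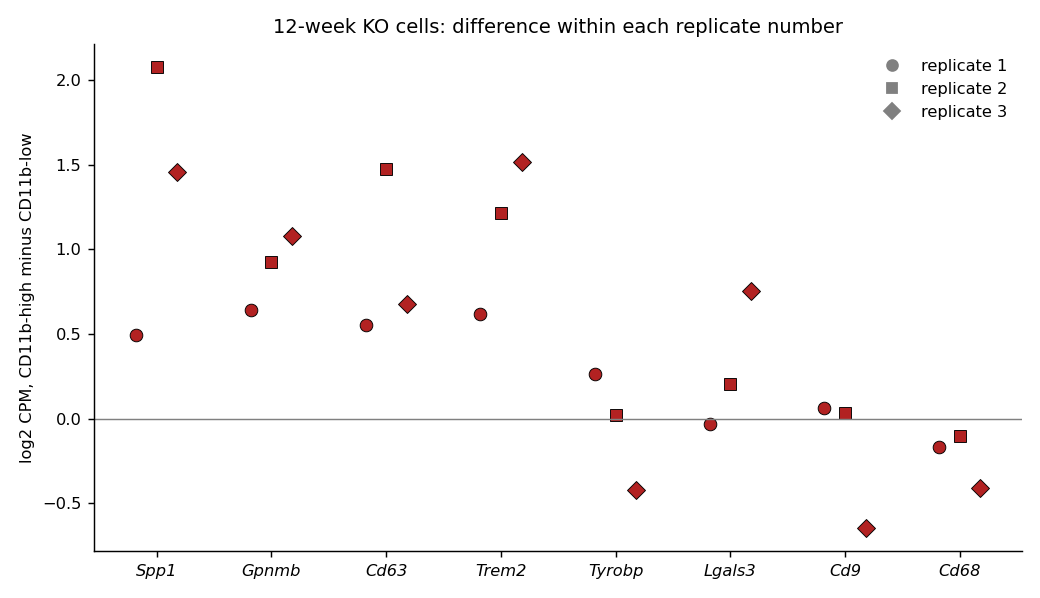
Difference in log2 CPM between CD11b-high and CD11b-low cells (y axis) for each gene (x axis) within the 3 same-numbered pairs of 12-week KO libraries, with marker shapes for the number. All points of Spp1, Gpnmb, Cd63 and Trem2 lie above 0, from 0.49 to 2.08, and all points of Cd68 lie below it. The share of all tested genes with such agreement was not counted.

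Against 12-week WT cells, the CD11b-high KO cells held more of 4 of the 8 genes. Spp1, Gpnmb, Cd63 and Trem2 rose, the other 4 genes did not pass, and 9.23% of all tested genes were called higher. This comparison differs in genotype and in surface CD11b at once, and it shares its WT libraries with the CD11b-low comparison. Xist level differs with them, at 20.6 and 26.2 CPM in CD11b-high KO libraries 1 and 3 and at most 0.0853 CPM in the WT libraries. Gpnmb averaged 4374 ± 901 CPM in CD11b-high KO cells and 466 ± 196 CPM in WT cells, a fold of 9.38 (log2 3.23, SE 0.36, edgeR adjusted p 1.73e-05). Cd63 averaged 1866 ± 474 CPM in CD11b-high KO cells and 306 ± 45.6 CPM in WT cells, a fold of 6.10 (log2 2.61, SE 0.38, edgeR adjusted p 0.000189). Spp1 averaged 5300 ± 1330 CPM in CD11b-high KO cells and 1174 ± 388 CPM in WT cells, a fold of 4.51 (log2 2.17, SE 0.30, edgeR adjusted p 0.000119). In none of these 3 genes did a library of one group reach the other.

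Trem2 stood at 292.5, 190.2 and 368 CPM in CD11b-high KO libraries, against 135, 141 and 100 CPM in WT libraries, and those also did not overlap. Its fold was 2.26 (log2 1.18, SE 0.31, edgeR adjusted p 0.0185). Without CD11b-high KO library 3 the adjusted p was 0.0817, without WT library 3 it was 0.0599, and in a fit of the 6 libraries alone it was 0.0868. Tyrobp, its adaptor, did not pass. It stood at 6137, 2727 and 3526 CPM in CD11b-high KO libraries, against 9347, 5871 and 4307 CPM in WT libraries, with a log2 fold change of -0.66 (SE 0.33, edgeR adjusted p 0.198). Without CD11b-high KO library 1 that value was -1.06 with an adjusted p of 0.0440. Lgals3, Cd9 and Cd68 were at 0.32, -0.28 and 0.36 on the log2 scale.

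Between 4 and 12 weeks, 3 genes of the set rose in KO cells and 4 in WT cells, with Cd63 in both. In KO CD11b-low cells Gpnmb, Cd63 and Cd68 rose, all 8 estimates were positive with a median of 1.02, and 4.81% of all tested genes were called higher. In WT cells Cd63, Trem2, Tyrobp and Cd9 rose, 7 of 8 estimates were positive with a median of 0.75, and 8.79% of all tested genes were called higher. The medians over all tested genes were -0.02 in KO and -0.03 in WT cells. Cd63 had the largest estimate in both genotypes. In KO cells it averaged 1081 ± 552 CPM at 12 weeks and 104 ± 43.5 CPM at 4 weeks, a fold of 10.4 (log2 3.38, SE 0.39, edgeR adjusted p 0.000135). In WT cells it averaged 306 ± 45.6 CPM at 12 weeks and 82.1 ± 19.0 CPM at 4 weeks, a fold of 3.72 (log2 1.90, SE 0.37, edgeR adjusted p 0.00458). The libraries of the 2 ages did not overlap in either genotype. In WT cells Xist stood at 15.5 and 36.2 CPM in 4-week libraries 1 and 3 and at most at 0.0853 CPM at 12 weeks. Its part in the age differences was not tested.

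Tyrobp rose in WT cells to 6508 ± 2580 CPM at 12 weeks, against 2106 ± 218 CPM at 4 weeks, a fold of 3.09 (edgeR adjusted p 0.00561). In KO cells it averaged 4173 ± 1299 CPM at 12 weeks and 2032 ± 115 CPM at 4 weeks, with an edgeR adjusted p of 0.0664. Trem2 rose in WT cells by a log2 fold change of 0.93 (edgeR adjusted p 0.0490), and its estimate in KO cells was 0.99 (edgeR adjusted p 0.0615). Cd9, a tetraspanin that organises surface proteins and restrains macrophage fusion, rose in WT cells by 0.76 on the log2 scale (edgeR adjusted p 0.0409), with the same rounded estimate and an adjusted p of 0.0679 in KO cells. For Trem2 and Cd9 the estimates of the 2 genotypes were close and fell on either side of the threshold, and for Tyrobp the interaction of genotype and age was -0.59 (SE 0.47). No interaction passed for any of these 3 genes. The Trem2 call was lost without WT 12-week library 1 or 2 or without any 1 of the WT 4-week libraries, at adjusted p of 0.0569 to 0.199. The Cd9 call was lost without WT 12-week library 2 or 3 or without any 1 of the WT 4-week libraries, at 0.0809 to 0.156.

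Gpnmb in KO cells averaged 2428 ± 850 CPM at 12 weeks and 1004 ± 228 CPM at 4 weeks, a log2 fold change of 1.27 (SE 0.34, edgeR adjusted p 0.0326). In WT cells its estimate was -0.71 (SE 0.33, edgeR adjusted p 0.153). Cd68, the macrosialin of late endosomes that is used as a macrophage marker, stood at 9698, 4642 and 4671 CPM in 12-week KO libraries, against 2575, 2768 and 2623 CPM in 4-week KO libraries. Library 1 stood far above the other 12-week KO libraries, and the log2 fold change was 1.26 (SE 0.33, edgeR adjusted p 0.0322). Without that library the value was 0.81 with an adjusted p of 0.175, and Gpnmb did not pass either, at 0.95 and 0.1498. Leaving out 4-week KO library 1, 2 or 3 ended both calls, at adjusted p of 0.0636 to 0.146, and leaving out 12-week KO library 3 ended that of Gpnmb, at 0.0596. Without 12-week KO library 2, by contrast, Spp1, Trem2, Tyrobp and Cd9 also passed, at adjusted p of 0.0235 to 0.0331. In WT cells the estimate of Cd68 was 0.75 (SE 0.33, edgeR adjusted p 0.128). Its interaction of genotype and age was 0.51 (SE 0.46) and did not pass, so a rise in KO cells alone was not shown.

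Lgals3, the galectin that binds damaged lysosomes and was long known as the macrophage antigen Mac-2, passed in none of the 7 comparisons in edgeR. With limma voom it was called for 12 over 4 weeks in WT cells, at a log2 fold change of 0.70 and an adjusted p of 0.0155. It averaged 2645 ± 866 CPM in CD11b-high KO cells, 2112 ± 607 CPM in 12-week KO cells and 2120 ± 526 CPM in 12-week WT cells. At 4 weeks it averaged 1316 ± 88.9 CPM in KO cells and 1384 ± 374 CPM in WT cells (SD, n = 3 in each group).

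In 12-week KO CD11b-low cells the coefficient of variation ran from 21.9% for Cd9 to 51.0% for Cd63, and in 4-week KO cells from 3.78% for Cd9 and for Cd68 to 41.8% for Cd63. Library 1 of the 12-week KO CD11b-low group had the highest value of 7 of the 8 genes (all but Cd9), and library 2 had the lowest value of all 8. In CD11b-high cells library 1 was highest for 5 genes, but library 2 held the highest Spp1 and the lowest Gpnmb, Cd63, Trem2, Tyrobp and Lgals3. Together the 8 genes took 3.47 ± 0.32% of all counts in CD11b-high KO cells, 3.12 ± 0.59% in 12-week KO cells, 3.01 ± 0.15% in 12-week WT cells, 2.05 ± 0.04% in 4-week KO cells and 2.01 ± 0.12% in 4-week WT cells. Cd9 alone made up 1.28% of the counts in CD11b-high KO cells and 1.59% in 12-week WT cells, so the summed share hides the changes of the rarer genes.

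**Figure D4:**
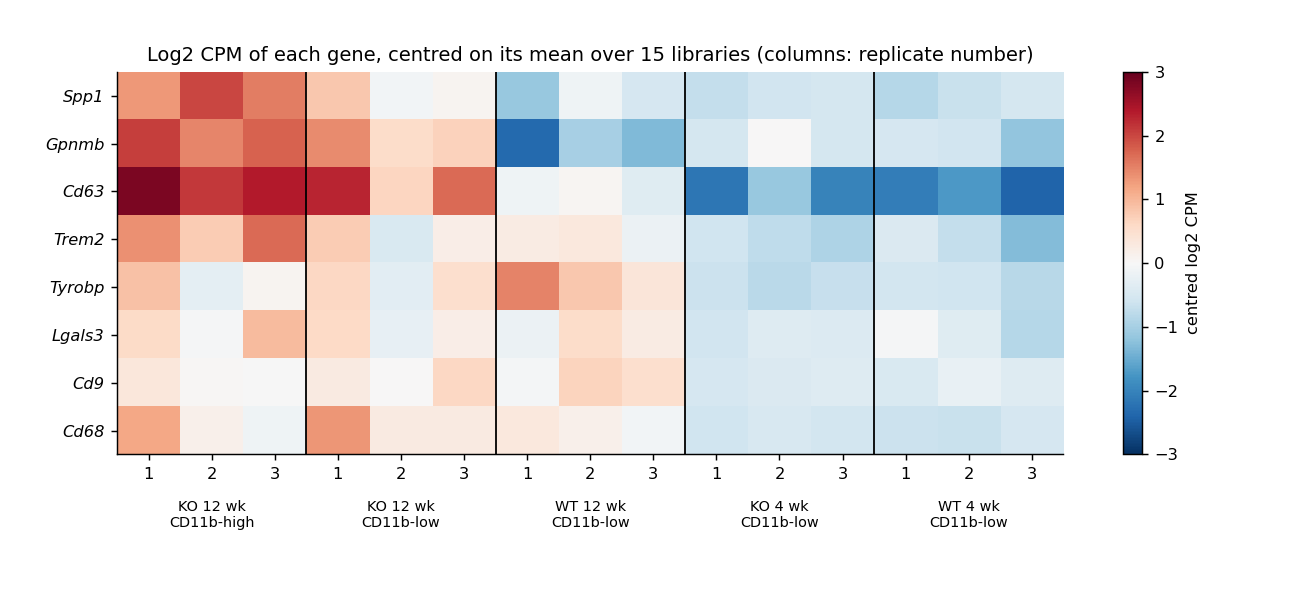
Log2 CPM of each gene (rows), centred on its own mean over the 15 libraries (columns, grouped and numbered by replicate), with red above and blue below the mean on a scale from -3 to 3. Cd63 spans the widest range, Spp1 and Gpnmb are red mainly in the 12-week KO libraries, and Tyrobp, Lgals3, Cd9 and Cd68 have their lower group means at 4 weeks in both genotypes.

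The set split by likeness of pattern, measured as the root mean square (RMS) difference of centred log2 CPM over the 15 libraries, where a small value means alike. The closest pairs were Lgals3 with Cd9 at 0.353 and Cd9 with Cd68 at 0.453. Trem2 lay nearer to Lgals3, at 0.462, than to its adaptor Tyrobp, at 0.657, or to Spp1, at 0.576. Spp1 lay nearest to Trem2 and then to Gpnmb, at 0.621, and Cd63 lay at 1.13 or more from every other gene of the set. Among 7086 other candidate genes, the nearest to Spp1 were St8sia4 at 0.322 and Ctsl at 0.330, and the nearest to Gpnmb were Stra6l at 0.335 and Abcg2 at 0.357. The nearest to Cd63 were Pf4 at 0.459 and S100a8 at 0.506, and the nearest to Trem2 were Rtn4 at 0.317 and Hilpda at 0.320. Tyrobp lay nearest to Trappc2l (0.112) and Atox1 (0.127), Lgals3 to Tmem9 (0.153) and Lamtor1 (0.241), Cd9 to Sdhd (0.0914) and Sri (0.105), and Cd68 to Pbdc1 (0.179) and Naglu (0.196). These values describe 15 libraries that share groups, and genes that vary little have small differences by construction.

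Of 21 other genes of the lipid-associated programme, 10 rose and none fell in CD11b-high KO over 12-week WT cells, with a median log2 fold change of 1.02, while 9.23% of all tested genes were called higher there. Mmp12, the macrophage elastase, averaged 1344 ± 692 CPM in CD11b-high KO cells, 128 ± 50.2 CPM in KO CD11b-low cells and 8.05 ± 4.53 CPM in WT cells. It was the 1 gene of the 21 that also passed between CD11b-high and CD11b-low KO cells, with a fold of 10.5 (edgeR adjusted p 0.00527). Cd36, a scavenger receptor for oxidised lipid, averaged 1470 ± 127 CPM in CD11b-high KO cells and 365 ± 201 CPM in WT cells. The cysteine protease Ctsl averaged 1498 ± 417 CPM in CD11b-high KO cells and 435 ± 104 CPM in WT cells, and Ctsb averaged 13270 ± 2966 CPM in CD11b-high KO cells and 4039 ± 2022 CPM in WT cells.

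In CD11b-low cells at 12 weeks 3 of the 21 rose in KO over WT cells, namely Mmp12, Ctsl and Acp5, and none fell (median log2 fold change 0.69), beside 2.6% of all tested genes called higher. Acp5, tartrate-resistant acid phosphatase, averaged 903 ± 296 CPM in KO cells and 444 ± 114 CPM in WT cells (edgeR adjusted p 0.0410). At 4 weeks the median was 0.01. With age 8 rose in KO cells and 4 in WT cells, none fell, and Cstb, Fabp4, Fabp5 and Npc2 were those that rose in WT cells. Of all tested genes 4.81% were called higher with age in KO cells and 8.79% in WT cells. Mmp12 was also the 1 gene of the 21 that passed the interaction of genotype and age, at 3.51 on the log2 scale (edgeR adjusted p 0.0349).

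**Figure D5:**
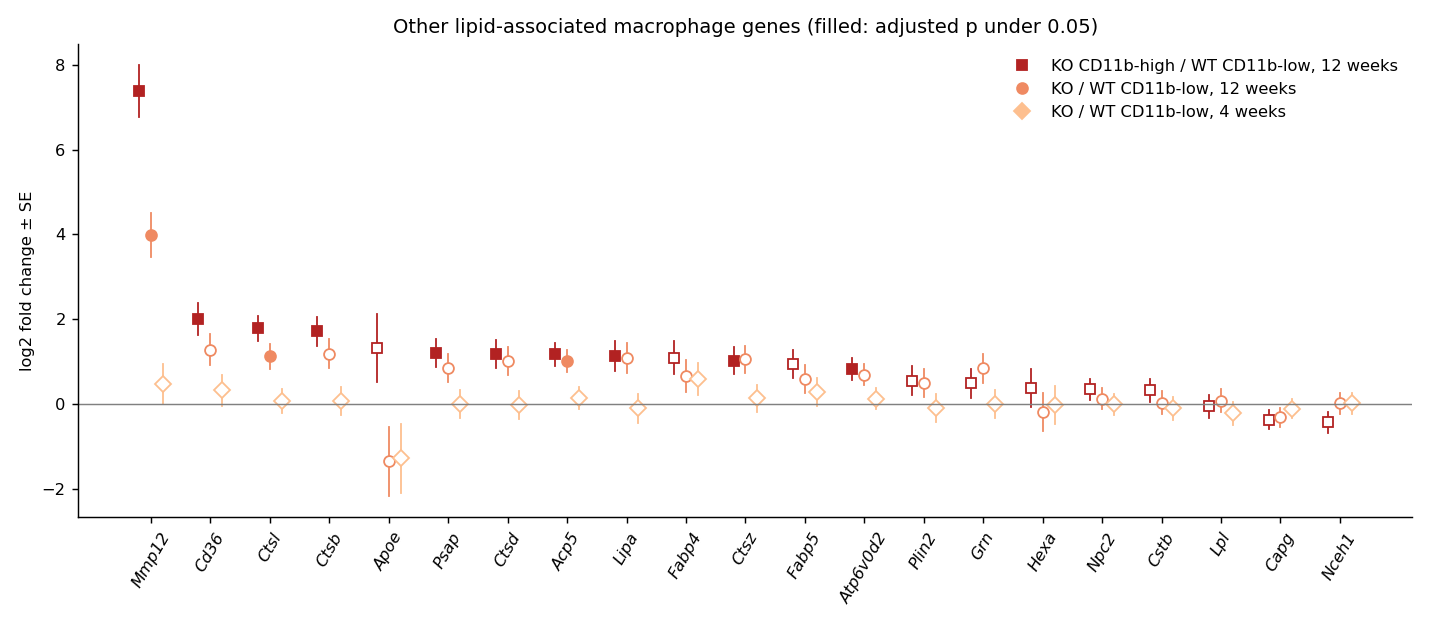
Log2 fold change ± SE (y axis) of 21 other lipid-associated macrophage genes (x axis, ordered by the first comparison) in 3 comparisons, filled where the adjusted p was under 0.05. Of the 21, 10 are filled for CD11b-high KO over WT cells, and 3 for CD11b-low cells at 12 weeks, the points at 4 weeks are open, and the first and second comparison share their WT libraries.

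A list of 14 genes around TREM2 and TYROBP held receptors that pair with TYROBP, a related adaptor, downstream signalling genes and proteases that shed surface proteins. Of these, 2 rose in KO over WT CD11b-low cells at 12 weeks, 2 in CD11b-high KO over WT cells, and none fell in either. Of all tested genes 2.6% and 9.23% were called higher in these comparisons, so the second count lies near the share over all genes. The 2 called genes were the same in each, namely Clec5a, another receptor that pairs with TYROBP, and Adam17, a protease that sheds surface proteins including TREM2. Clec5a averaged 329 ± 82.9 CPM in CD11b-high KO cells, 249.5 ± 60.1 CPM in KO CD11b-low cells and 102 ± 31.2 CPM in WT cells. Adam17 averaged 104 ± 24.1 CPM in CD11b-high KO cells, 91.25 ± 26.2 CPM in KO CD11b-low cells and 39.2 ± 10.1 CPM in WT cells. With age 1 of the 14 rose in KO cells (Clec5a, median of the list -0.33). In WT cells 1 rose (Hcst) and 4 fell (Adam17, Adam10, Inpp5d and Lyn), with a median of -0.41. Of all tested genes 4.81% were called higher with age in KO cells, and 8.79% higher and 8.39% lower in WT cells. The counts of genes that rose thus lie near the share over all genes. In WT cells Adam17 averaged 39.2 ± 10.1 CPM at 12 weeks and 126 ± 15.8 CPM at 4 weeks, a log2 fold change of -1.69 (edgeR adjusted p 0.00211). The kinase Syk, directly downstream, passed in no comparison.

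Of the receptors of osteopontin and its kinase, 8 of 9 were tested, 3 rose in CD11b-high KO over WT cells and 1 in KO over WT CD11b-low cells at 12 weeks, against the same 9.23% and 2.6% of all tested genes. Fam20c, the secretory kinase that phosphorylates osteopontin, averaged 24.9 ± 6.22 CPM in CD11b-high KO cells, 10.3 ± 6.93 CPM in KO CD11b-low cells and 0.2645 ± 0.364 CPM in WT cells. The integrin chain Itgav averaged 12.7 ± 2.25 CPM in CD11b-high KO cells and 6.20 ± 2.05 CPM in WT cells. Its partner Itgb3 averaged 1.32 ± 1.47 CPM in CD11b-high KO cells and 0.0697 ± 0.0584 CPM in WT cells, near the floor, with 125 counts over all 15 libraries. Of 9 MITF and TFE factors and their regulators, 3 rose in CD11b-high KO over WT cells, namely Rragd, Fnip2 and Fnip1, and Fnip2 was the 1 that rose in KO over WT CD11b-low cells at 12 weeks. Fnip2, a partner of folliculin in nutrient sensing, averaged 26.3 ± 2.16 CPM in CD11b-high KO cells, 15.5 ± 4.73 CPM in KO CD11b-low cells and 6.603 ± 1.31 CPM in WT cells. Rragd, a RAG GTPase, averaged 3.75 ± 1.27 CPM in CD11b-high KO cells and 0.3065 ± 0.204 CPM in WT cells. Mitf itself passed in neither.

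Markers of other cells differed between the same groups. Of all tested genes, 9.23% were called higher and 5.6% lower in CD11b-high KO over WT cells. In KO over WT CD11b-low cells at 12 weeks, 2.6% were called higher and 0.497% lower. Of 11 tested T and NK cell markers, 7 rose in CD11b-high KO over WT cells and 6 in KO over WT CD11b-low cells at 12 weeks. Their summed level was 34.1 to 92.1 CPM in CD11b-high KO libraries, 42.8 to 124 CPM in 12-week KO CD11b-low libraries and 3.11 to 7.10 CPM in 12-week WT libraries. Eosinophil markers summed to 299 to 999, 123 to 617 and 10.02 to 17.1 CPM in those groups, led by Ear6, while Epx was at 0 in every library. Neutrophil markers summed to 376 to 514, 182 to 231 and 96.8 to 124 CPM, and S100a8 averaged 304 ± 53.8 CPM in CD11b-high KO cells and 34.1 ± 14.3 CPM in 12-week WT cells, while Ly6g was at 0 in every library. Dendritic cell markers summed to 125 to 576, 69.3 to 108 and 28.4 to 34.4 CPM. Monocyte markers summed to 125 to 350, 136 to 292 and 104 to 320 CPM. That sum was led by Fn1, with 111155 counts over the 15 libraries, against 5291 for Ccr2, the next. Of the 10 monocyte markers, 5 rose in CD11b-high KO over WT cells, with a median log2 fold change of 2.91 over the list. In KO over WT CD11b-low cells at 12 weeks 2 rose, with a median of 0.66. Erythroid markers ran the other way, at 49.5 to 151, 67.9 to 124 and 494 to 1356 CPM. Of the 12 alveolar macrophage markers, 1 rose and 4 fell in CD11b-high KO over WT cells, and 2 fell in KO over WT CD11b-low cells at 12 weeks. B cell markers stayed at or under 12.1 CPM and epithelial markers at or under 122 CPM in every library. The part of these cells in the results for the 8 genes was not tested.

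The pseudogene Cd63-ps held 55 to 1046 counts, at most 2.6% of the counts of Cd63 in a library, and Cd9-ps and the overlapping Gm26728 each held under 0.1% of those of Cd9, at most 0.0858% and 0.00259%. Gm42793 overlaps an exon of Spp1 on the same strand in GENCODE M21, and its reads were not analysed here. The 7 libraries with Xist above 1 CPM include 4 of the 6 at 12 weeks in KO mice. In the other 8 libraries, a choice made after seeing the data, each 12-week KO group and the 4-week WT group keep 1 library. The lone libraries are there assumed to vary like the other groups, so a pass or a loss says little of stability. Spp1, Gpnmb and Cd63 were called for CD11b-high KO over WT cells and no other call of the 8 genes was made in that subset, where the log2 fold change of Gpnmb in KO over WT CD11b-low cells at 12 weeks was 1.98 (edgeR adjusted p 0.208), that of Cd63 was 0.79 (0.578), and that of Trem2 in CD11b-high KO over WT cells was 0.60 (0.471).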

How the data were processed

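The authors deposited raw read counts per gene, 1 table for the series. STAR, Subread and featureCounts are named in the submitters' processing notes without versions, and the genome build and strand setting are not given in the sources used here. Of 40780 table rows, 270 repeats of 160 genes were removed, which left 40510 genes. In R 4.3.3, edgeR 4.0.16 kept 13284 genes (filterByExpr, minimum count 10, minimum total 15), scaled libraries by TMM and fitted a robust quasi-likelihood model with 1 coefficient per group to all 15 libraries, leaving 10 residual degrees of freedom. Tests were two-sided, with Benjamini-Hochberg adjustment over all tested genes and a threshold of 0.05, and were tested on simulated data. Groups came from the labels, and replicates of a group differed by more than sampling noise. Alternatives were RLE scaling, no filter, DESeq2 1.42.0, limma 3.58.1 (voom with quality weights), only the groups compared, the replicate number as a block, and each library left out. A subset of 8 libraries with Xist at or under 1 CPM was added after seeing the data.

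Same-numbered deviations from the group means correlated at 0.429, 0.353 and 0.113 between CD11b-high and CD11b-low 12-week KO libraries, so those numbers were taken as pairs. The labels do not say what a number marks. The members and the gene lists were chosen with earlier results of these data known. All 8 members are named, with up to 4 called genes per list and comparison, and the 2 nearest patterns per member among genes with a mean of at least 10 CPM in 1 group (log2 CPM with a prior count of 2). Exon lengths are unions of GENCODE M21 exons on GRCm38, and promoter windows are RefSeq's.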

Additional observations from a re-analysis of the deposited data

How the results depend on the processing

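For CD11b-high KO over WT cells, Spp1, Gpnmb and Cd63 passed under all alternatives. One of these, the Xist subset, keeps 1 CD11b-high KO library, which is assumed to vary like the other groups, and does not bear on stability. Gpnmb in KO over WT CD11b-low cells at 12 weeks passed under every alternative but that subset. The same held for Cd63 with age in both genotypes and for Tyrobp with age in WT cells. The remaining calls of the 8 genes depended on other settings as well. At 12 weeks in CD11b-low cells the 2 called genes became 1 with limma and 0 in the subset of libraries with little Xist. Between CD11b-high and CD11b-low KO cells the 1 called gene became 0 with RLE, with only the groups compared and in the Xist subset, became 2 with no filter and with DESeq2, and ranged from 0 to 1 with 1 library left out. With age in KO cells the 3 called genes became 6 with no filter, 7 with DESeq2, limma or only the groups compared and 0 in the Xist subset, and ranged from 1 to 7 with 1 library left out. With age in WT cells the 4 called genes became 6 with limma (gaining Lgals3 and Cd68, adjusted p 0.0155 each), 3 with no filter (losing Cd9, 0.0936), 2 with only the groups compared and 0 in the Xist subset, and ranged from 2 to 3 with 1 library left out. For the interaction the count of 0 became 2 with no filter and 1 with DESeq2. The cause of these changes was not tested. The Xist subset, the fits of only the groups compared and those with 1 library left out hold fewer libraries. The Xist subset also removes libraries unevenly over the groups.

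With the replicate number as a block, the count between CD11b-high and CD11b-low KO cells was 0. This held with the block over all 15 libraries (Spp1 edgeR adjusted p 0.0664) and with it over the 12-week KO pairs alone. Both fits used all 15 libraries. Tyrobp was gained with age in KO cells (adjusted p 0.0437) and Cd9 was lost with age in WT cells (0.0525), and no other call of the 8 genes changed. The block called 66 genes for the interaction, against 33 without it. In the other comparisons not every same-numbered pair correlated above 0.1.

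Of all tested genes, 412 were called in KO over WT CD11b-low cells at 12 weeks, against 1090 with no filter, 880 with DESeq2, 189 with only the groups compared, 49 in the Xist subset and 230 to 426 with 1 library left out. At 4 weeks 13 were called, against 73, 24, 4, 8 and 4 to 15 under the same alternatives. Between CD11b-high and CD11b-low KO cells 92 were called, against 533, 261, 18, 0 and 2 to 247, and 165 with limma. For CD11b-high KO over WT cells 1970 were called, against 793 with only the groups compared, 530 in the Xist subset and 952 to 2099 with 1 library left out. With age in KO cells 915 were called, against 1395 with no filter, 1698 with DESeq2, 2640 with limma, 1646 with only the groups compared, 61 in the Xist subset and 235 to 1305 with 1 library left out. With age in WT cells 2282 were called, against 3968 with limma, 1123 with only the groups compared, 1 in the Xist subset and 1069 to 2528 with 1 library left out. For the interaction 33 were called, against 321 with no filter, 151 with DESeq2, 2 in the Xist subset and 3 to 35 with 1 library left out.

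Small estimates that were not called changed sign. At 12 weeks in CD11b-low cells, Lgals3 was at 0.007189 with no filter and 0.004903 with only the groups compared, and Trem2 at -0.01751 with limma and -0.6143 in the Xist subset. At 4 weeks Trem2 was at -0.04763 with limma and -0.1103 in the Xist subset. Between CD11b-high and CD11b-low KO cells, Tyrobp was at 0.001128 with only the groups compared and 0.01441 in the Xist subset, and Cd9 at 0.02908 in that subset. For CD11b-high KO over WT cells, Lgals3 was at -0.2714 in the Xist subset. For the interaction, Lgals3 was at -0.1696 with limma and -0.4409 in the Xist subset, Cd9 at 0.004549 with only the groups compared and 0.004192 with the block, Trem2 at -0.004632 with the block and -0.504 in the Xist subset, and Cd68 at -0.02564 in that subset.

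With 1 library left out, log2 fold changes at 12 weeks in CD11b-low cells ran from -0.2551 to 0.3343 for Trem2, -0.2378 to 0.186 for Lgals3 and -0.267 to 0.07419 for Cd9. At 4 weeks they ran from -0.008714 to 0.148 for Spp1, -0.05242 to 0.5336 for Cd63, -0.1811 to 0.2398 for Trem2, -0.1327 to 0.007561 for Tyrobp and -0.2572 to 0.1344 for Lgals3. Between CD11b-high and CD11b-low KO cells they ran from -0.4224 to 0.2071 for Tyrobp and -0.6989 to 0.2326 for Cd68, and for CD11b-high KO over WT cells from -0.1257 to 0.6002 for Cd68. With age in WT cells Spp1 ran from -0.1118 to 0.368. For the interaction Trem2 ran from -0.2815 to 0.2909, Lgals3 from -0.1667 to 0.2568 and Cd9 from -0.1863 to 0.1547.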

Other observations

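Other tetraspanins, galectins and late endosome membrane genes are given beside the share of all tested genes called higher, which was 2.6% in KO over WT CD11b-low cells at 12 weeks and 9.23% in CD11b-high KO over WT cells. Of 12 tested tetraspanins other than Cd63 and Cd9, 1 rose in KO over WT CD11b-low cells (Cd82, log2 fold change 0.93) and 2 in CD11b-high KO over WT cells (Tspan4, 1.52, and Cd37, 1.10), and none fell. Of 5 tested galectin and galectin-binding genes other than Lgals3, 1 rose in KO over WT CD11b-low cells (Lgals3bp, which encodes a galectin-binding glycoprotein, 1.08) and 2 in CD11b-high KO over WT cells (Lgals3bp, 1.11, and Lgals8, 0.78). With age, Lgals1 rose by a log2 fold change of 0.98 in KO cells and 1.43 in WT cells. Of 7 tested late endosome membrane genes, Lamp2 alone rose in CD11b-high KO over WT cells (1.30), and the median in KO over WT CD11b-low cells was -0.21.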
